A study of Mus musculus with 4 samples.

Results

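The genes described here are Arc, Npas4, Homer1, Nptx2, Bdnf, Dusp1 and Ier2, 7 of the 19465 genes in a table of spatial counts from coronal sections of mouse brain. They were chosen by symbol, as genes that neurons switch on after activity, and from earlier results on these same counts in which genes of this kind differed between sections. Their levels are therefore given as a description, with no test. The sections came from 4 mice, 2 wild type and 2 Celsr3 heterozygous, and the study asked what the heterozygous genotype does to the striatum. Celsr3 encodes an adhesion receptor of the cadherin family. No treatment was given. The labels named neither the Celsr3 allele nor the strain, sex or age of the mice. The tissue was fixed in formalin, embedded in paraffin and read with the Visium CytAssist assay, which captures gene probes over a printed grid. Each barcoded spot of that grid covers tissue with several cells, so fewer cells of a type and less RNA per cell cannot be told apart.

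The 12602 spots fell into 4 sets by the ending of their barcodes, called sets 1 to 4, and no set could be matched to a mouse label. The genotypes were therefore not compared, and every value is given for each set on its own. In sets 1 to 4 there were 3055, 2808, 3445 and 3294 spots. Counts came to 174761560, 109663162, 165185177 and 90752475 in all, with a median of 52481, 38182, 44972 and 26444 counts per spot. The sets share 1613 barcodes in common, since each section lies on a grid of the same barcodes. The genotype's own gene, Celsr3, stood at 31.7, 46.8, 26.0 and 47.2 counts per 1000000 counts (CPM) in sets 1 to 4.

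Activity-induced genes are transcribed within minutes to hours of calcium entry and kinase signalling in a neuron, many of them through the factors CREB and SRF. Some encode regulators that act on further genes: Npas4 is a neuron-specific transcription factor, Ier2 is a nuclear protein of the immediate-early class, and Dusp1 is a phosphatase that switches off MAP kinases. Others encode effectors at the synapse: Arc forms capsid-like particles and drives removal of AMPA receptors, Homer1 encodes scaffold proteins bound to metabotropic glutamate receptors, Nptx2 is a secreted pentraxin that gathers AMPA receptors, and Bdnf is a neurotrophin that acts on the receptor TrkB. In the striatum Bdnf protein is supplied mainly by axons from the cortex. Homer1 has an activity-induced short form and constitutive long forms, and the counts per gene do not separate them.

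CREB binds the cAMP response element TGACGTCA and its half-site TGACG, so the bases before the start sites were searched on both strands. RefSeq windows in build GRCm38.p6 were found for Npas4, Dusp1, Homer1 and Bdnf, 11 windows in all, and 4 of these held at least 1 half-site in the 250 bases before the start. Those 4 windows are printed 5′ to 3′ in the direction of transcription, with each half-site, as TGACG or as CGTCA on the other strand, in capitals.
Npas4, chr19:4989972-4990221, minus strand: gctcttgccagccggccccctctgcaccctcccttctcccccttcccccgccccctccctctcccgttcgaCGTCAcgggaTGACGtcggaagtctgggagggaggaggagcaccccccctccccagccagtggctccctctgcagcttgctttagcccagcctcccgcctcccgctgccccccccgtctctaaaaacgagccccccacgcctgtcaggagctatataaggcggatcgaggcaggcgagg
Dusp1, chr17:26508473-26508722, minus strand: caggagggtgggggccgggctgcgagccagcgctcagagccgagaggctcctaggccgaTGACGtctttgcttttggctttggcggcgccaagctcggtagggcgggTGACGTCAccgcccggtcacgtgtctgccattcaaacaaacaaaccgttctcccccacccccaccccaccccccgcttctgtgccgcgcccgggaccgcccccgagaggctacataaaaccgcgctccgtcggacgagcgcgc
Homer1, chr13:93303507-93303756, plus strand: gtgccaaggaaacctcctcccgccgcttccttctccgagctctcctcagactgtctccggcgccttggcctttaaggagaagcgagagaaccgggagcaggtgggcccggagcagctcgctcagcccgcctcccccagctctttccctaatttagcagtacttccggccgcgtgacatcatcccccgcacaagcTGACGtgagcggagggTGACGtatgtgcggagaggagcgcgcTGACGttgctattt
Bdnf, chr2:109692186-109692435, plus strand: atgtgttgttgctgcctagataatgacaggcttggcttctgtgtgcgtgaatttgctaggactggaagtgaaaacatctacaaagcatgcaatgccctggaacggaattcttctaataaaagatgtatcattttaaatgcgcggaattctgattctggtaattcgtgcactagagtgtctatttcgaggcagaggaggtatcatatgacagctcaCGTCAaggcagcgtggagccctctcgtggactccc
The Npas4 window has half-sites 179 and 169 bases before the start, 1 on each strand. In Dusp1 they lie 191, 143 and 140 bases before it, and the pair at 143 and 140 overlaps within the full element TGACGTCA. The first Homer1 window has 3, at 56, 40 and 14 bases. Of 7 Bdnf windows this is the one with a half-site, 35 bases before the start. Over all 32851 RefSeq windows of the same length, 17.8% held a half-site and 1.55% the full element. The AP-1 site TGANTCA was found in 1 other Bdnf window and in 6.75% of all windows. None of the 11 windows held a CArG box (1.47% of all windows), the EGR site GCGTGGGCG (0.536%) or the TATA box TATAAA (12.4%). A match is a stretch of letters and shows no binding.

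Brain areas were found from marker genes that are not among the 7. A spot was given to the area whose markers had the highest mean z score in it, where that score led the next by at least 0.2. Of 12601 spots with at least 500 counts, 1938 (15.4%) led by less and stayed between areas. Of 15 areas, 13 had at least 30 spots in every set. Thalamus had 153, 0, 2 and 307 spots in sets 1 to 4, and choroid plexus had 72, 0, 89 and 11, so these are given only for sets with 30 or more. Striatal spots had Pde10a and Adora2a among their leading genes, with 8 of the 13 striatal markers among the 10 genes of largest fold over the other spots. The same markers had picked the spots, so their place there is largely built in and does not test the name. Fewer markers led in the spots named here for layer 5, with 1 among the leading 10, for layer 6, also with 1, and for lateral septum, with 0. Lateral septum spots numbered 33, 143, 212 and 42 in sets 1 to 4. In a separate clustering of spots, the cluster led by their leading genes, Lbhd2 and Ctxn3 first, held 29, 142, 259 and 0. Septum spots of sets 1 and 3 also held meningeal and choroid markers at 2515.0 and 1810.3 CPM. Whether the septum spots of all sets are the same tissue was not tested. All area names stand only for the marker list that picked the spots.

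Across the whole section, 6 of the 7 genes stood lower in sets 1 and 3 than in either of the other two, and Homer1 did not. The share of all genes with this order was not counted. The 7 were chosen with differences between sections in view, so nothing is read from that number. Levels are in CPM, the counts of a gene over all counts of the set, and the intervals are 95% intervals for counting error only. They say nothing of the spread between mice. CPM values are set side by side for 1 gene at a time, since probes of different genes need not capture equally.

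**Figure D1:**
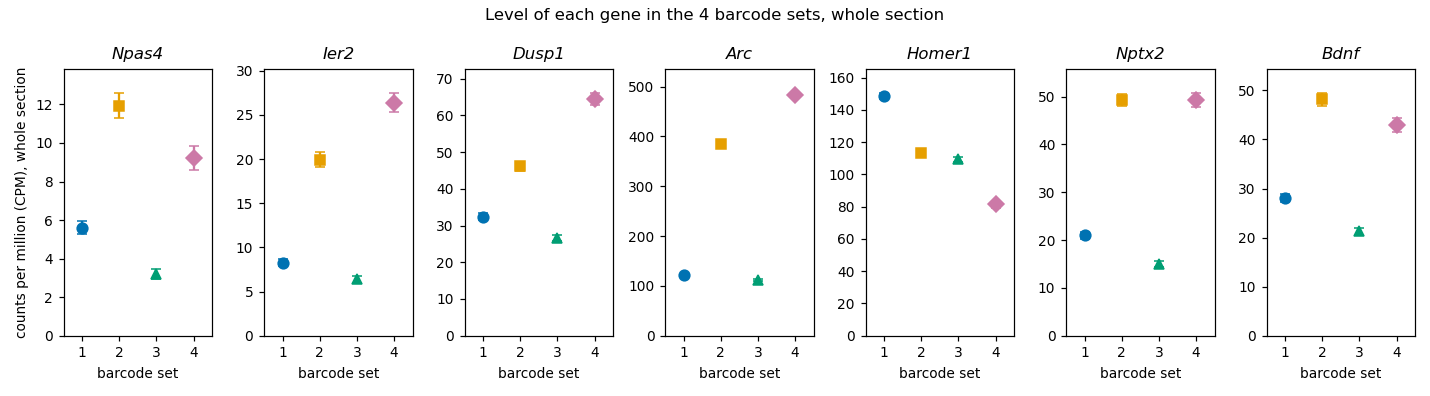
Whole-section level of each of the 7 genes (vertical axis, CPM, starting at 0) in barcode sets 1 to 4 (horizontal axis), with 95% Poisson intervals for counting error, most of them smaller than the symbol. Arc stood at 384.4 and 483.0 CPM in sets 2 and 4 against 122.1 and 111.5 in sets 1 and 3, while Homer1 was highest in set 1.

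Arc stood at 122.1, 384.4, 111.5 and 483.0 CPM in sets 1 to 4, from 18416 to 43837 counts. Set 4 was 4.33 times set 3 (95% interval 4.26 to 4.41). Ier2 was 8.26, 19.9, 6.4 and 26.4 CPM, and set 4 was 4.12 times set 3 (3.83 to 4.43). The order of the sets was the same for these genes, highest in set 4 and lowest in set 3. Npas4 was the lowest counted of the 7, at 5.6, 11.9, 3.19 and 9.2 CPM. Here set 2 was highest, at 3.74 times set 3 (3.38 to 4.14).

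Nptx2 stood at 21.0, 49.3, 15 and 49.4 CPM, and sets 2 and 4 could not be separated, with a ratio of 1.00 (0.962 to 1.04). Dusp1 was 32.4, 46.1, 26.7 and 64.5 CPM, a range of 2.42 times (2.32 to 2.51). Bdnf was 28.0, 48.2, 21.3 and 42.9 CPM, a range of 2.26 times (2.17 to 2.36). Homer1 ran otherwise, at 148.7, 113.3, 109.3 and 81.4 CPM. Its highest set was set 1 and its lowest set 4, 1.83 times apart (1.78 to 1.88).

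A gene was counted as 2-fold apart where its log2(CPM + 1) differed by at least 1 between 2 sets, taking genes whose average over the 4 sets reached 10 CPM. Npas4 did not reach it in the whole section, so 6 of the 7 were tested. Between sets 1 and 2, 3 of 6 were 2-fold apart (Arc, Nptx2, Ier2) against 6.76% of the 10144 genes tested. The same 3 were 2-fold apart between sets 1 and 4, against 7.23%. Between sets 2 and 3 there were 4 (Arc, Nptx2, Bdnf, Ier2) against 4.11%, and between sets 3 and 4 there were 4 (Arc, Nptx2, Dusp1, Ier2) against 5.61%. Sets 1 and 3 had 0 of 6 against 0.493%, and sets 2 and 4 had 0 of 6 against 0.779%. Nothing is read from these shares, because the genes were chosen with differences of this kind in view.

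Some other values split sets 1 and 3 from sets 2 and 4 as well. Sets 1 and 3 had the most counts, and their Celsr3 levels were the lower ones. Meningeal and choroid markers (5 genes) summed to 7375.8, 30, 6205.5 and 611.8 CPM in sets 1 to 4, far higher in sets 1 and 3. Endothelial and mural markers (6 genes) summed to 184.5, 266.9, 158.8 and 276.2 CPM, lower in sets 1 and 3. The summed level of 7 neuron markers was 5671.6, 6404.5, 6258.1 and 6648.3 CPM. Oligodendrocyte markers (6 genes) summed to 9048.1, 3814.3, 4381.6 and 5377.6 CPM, astrocyte markers (6 genes) to 2665.3, 2591.4, 2445.0 and 2812.4, and microglial markers (6 genes) to 292.1, 294.7, 264.8 and 262.9. None of these markers was at 0 in any set. The part of Celsr3 and of the cell types in the result was not tested. With counts thinned to the smallest set, the same numbers of the 7 genes were 2-fold apart in all 6 pairs of sets. Thinning leaves the expected CPM of a gene unchanged, so with counts this large that result could hardly differ. The part of depth or library quality was therefore not tested either. Giving every set the same mix of areas left Arc at 133.6, 370.9, 105.9 and 558.6 CPM, and Homer1 at 172.7, 108.9, 109.9 and 96.3 CPM, still highest in set 1 and lowest in set 4.

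The same order was looked for area by area, in the 13 areas held by every set. Arc was highest in set 4 in 10 of the 13 areas and in set 2 in the other 3, and it was lowest in set 3 in 10 and in set 1 in 3. Nptx2 and Ier2 gave the same counts, 10 and 3 for the highest set and 10 and 3 for the lowest. Dusp1 was highest in set 4 in 9 areas and in set 2 in 4, and lowest in set 3 in 9 and in set 1 in 4. Npas4 was highest in set 2 in 11 areas, but its sets 2 and 4 lay within counting error of each other in 12 of the 13. Bdnf was less even, highest in set 2 in 7 areas, set 4 in 5 and set 1 in 1. Homer1 was highest in set 1 in 11 areas and lowest in set 4 in 10. These tallies go by the value alone. Sets 2 and 4 lay within counting error in 8 areas for Dusp1, 8 for Ier2, 7 for Nptx2 and 5 for Bdnf, and in 0 for Arc. Sets 1 and 3 did so in 7 areas for Dusp1 and for Ier2, 6 for Nptx2 and 2 for Arc. For Homer1, sets 3 and 4 did so in 7.

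**Figure D2:**
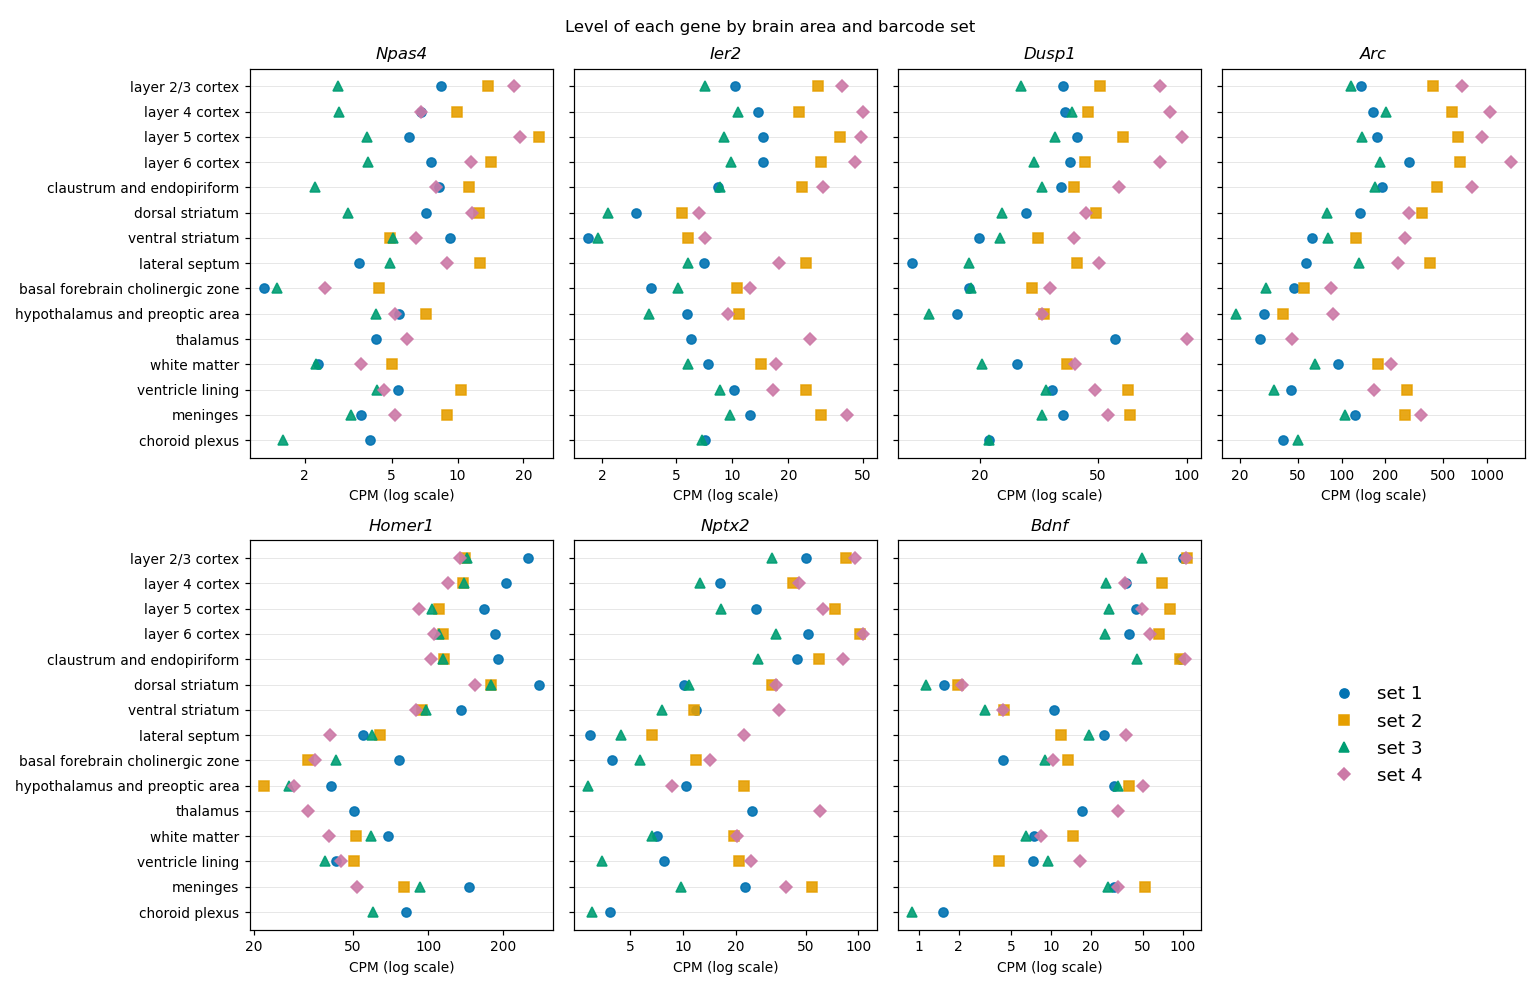
Level of each of the 7 genes (horizontal axis, CPM, log scale) in 15 brain areas (vertical axis), with 1 symbol for each barcode set that had at least 30 spots there. Arc reached 1477.9 CPM in layer 6 spots of set 4, Bdnf stayed between 1.14 and 2.13 CPM in dorsal striatum, and Homer1 was highest in dorsal striatum in every set.

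Npas4, the neuron-specific transcription factor, was sparse in every area. In dorsal striatum it stood at 7.16, 12.5, 3.17 and 11.7 CPM in sets 1 to 4, from 202, 282, 100 and 115 counts. In the layer 5 spots it was 5.99, 23.6, 3.85 and 19.3 CPM. Set 2 was 6.14 times set 3 there (4.47 to 8.55), and sets 2 and 4 stood above the other sets. By the median over the sets, layer 5 came first at 12.6 CPM and the basal forebrain cholinergic zone last at 1.99. Layer 5 led by value in sets 2 and 4 but not in sets 1 and 3. Ventral striatum held 9.25 CPM in set 1 and 5.06 in set 3, from 22 and 8 counts, and layer 6 held 7.53 and 3.9. Layer 6 and dorsal striatum, next to each other in the order by median, did not differ beyond counting error in any set. Dorsal striatum had a median of 9.42 CPM, and the ratios of layer 6 to striatum were 1.05, 1.14, 1.23 and 0.981 in sets 1 to 4. Npas4 was thus 1 of the 2 genes of the 7 that were not lower in striatum than in the rest of the section in any set, the other being Homer1: its ratio of striatum to other spots was 1.35 (1.15 to 1.58), 1.06, 0.993 and 1.31 in sets 1 to 4, and in sets 2 and 3 it lay within counting error of 1.

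Ier2, the small nuclear immediate-early protein, stood higher in cortex than in striatum. In dorsal striatum it stood at 3.05, 5.4, 2.16 and 6.6 CPM, and in layer 6 spots at 14.6, 29.8, 9.82 and 45.5 CPM. Layer 6 was thus 4.78, 5.53, 4.55 and 6.89 times dorsal striatum, and the 95% intervals of all 4 ratios lay above 3. Cortex was not alone in this: spots with meningeal markers held 12.5, 30, 9.73 and 41.4 CPM, and ventricle lining 10.2, 24.9, 8.58 and 16.5. Ventral striatum was as low as dorsal striatum, at 1.68, 5.77, 1.9 and 7.17 CPM. Lateral septum spots held 7.08, 25, 5.75 and 17.9 CPM, between 2.32 and 4.63 times dorsal striatum, from only 33 spots in set 1 and 42 in set 4. In choroid plexus, an epithelium without neurons, Ier2 stood at 7.16 CPM in set 1 and 6.91 in set 3, above dorsal striatum of the same sets.

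Dusp1, the MAP kinase phosphatase, had the narrowest range of the 7 over the areas held by every set. Its median over the sets ran from 51.7 CPM in layer 5 spots to 24.3 in the basal forebrain cholinergic zone. In dorsal striatum it was 28.7, 49.4, 23.7 and 45.5 CPM, and in layer 6 spots 40.4, 45.3, 30.5 and 81.2. Layer 6 stood above striatum in sets 1, 3 and 4, at 1.41, 1.29 and 1.78 times, and in set 2 the ratio was 0.917 (0.821 to 1.02). Thalamus, seen in 2 sets, held the highest Dusp1 value of all areas there, at 57.1 CPM in set 1 and 100.3 in set 4. In set 4 its interval (94.5 to 106.4) overlapped that of layer 5, at 95.9 CPM (87.6 to 104.8). Choroid plexus held 21.5 CPM in set 1 and 21.4 in set 3, and dorsal striatum was 1.33 (1.11 to 1.61) and 1.11 (0.911 to 1.35) times that. Ventricle lining held 35.0, 63.3, 33.5 and 48.9 CPM in sets 1 to 4.

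Arc, which drives removal of AMPA receptors, stood highest in cortical spots in every set, though some other areas reached the level of single layers. Lateral septum spots, 33, 143, 212 and 42 of them, held 57.2, 409.5, 131.8 and 243.5 CPM in sets 1 to 4. They were 0.429, 1.15, 1.66 and 0.829 times dorsal striatum, and in set 3 they stood above layer 2/3 at 116.5 CPM. Layer 6 spots held 291.0, 653.9, 185.0 and 1477.9 CPM in sets 1 to 4. They were the highest area in sets 1 and 4 and, within counting error of layer 5 at 634.1 CPM, in set 2. In set 3 layer 4 stood higher at 202.8 CPM, with a ratio of layer 6 to layer 4 of 0.913 (0.866 to 0.961). Set 4 was 7.99 times set 3 in layer 6 (7.65 to 8.34). The gap was narrower in the basal forebrain cholinergic zone, at 2.8 times (2.33 to 3.37), where the levels were 47.4, 54.8, 30 and 84.0 CPM.

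Arc in dorsal striatum stood at 133.4, 357.1, 79.5 and 293.7 CPM in sets 1 to 4. Set 2 was highest there, not set 4, and was 4.49 times set 3 (4.3 to 4.7). Relative to the other spots of its own set, striatum was at 1.11, 0.912, 0.667 and 0.58. It was thus above the rest in set 1 and below it in sets 2, 3 and 4, and the value of set 2 became 1.02 with RLE scaling. Layer 6 was 2.18, 1.83, 2.33 and 5.03 times dorsal striatum. In ventral striatum spots, led by Pdyn, Wfs1 and Crh, Arc was 62.6, 125.7, 80.3 and 271.6 CPM. Dorsal striatum was 2.13 and 2.84 times ventral striatum in sets 1 and 2, while in sets 3 and 4 the ratios of 0.99 and 1.08 lay within counting error of 1.

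Arc was low in the hypothalamus and preoptic area, at 29.2, 39.4, 18.8 and 87.8 CPM, and in thalamus, at 27.3 CPM in set 1 and 45.4 in set 4. In set 4 the basal forebrain cholinergic zone, at 84.0 CPM, lay within counting error of the hypothalamus. Choroid plexus held 39.6 CPM in set 1 (34.9 to 44.7) and 50 in set 3 (44.3 to 56.1), above the hypothalamus of the same sets. The hypothalamus stood at 0.737 times choroid plexus in set 1 (0.63 to 0.864) and 0.377 times in set 3 (0.316 to 0.451). Dorsal striatum was 3.37 times choroid plexus in set 1 (2.97 to 3.83) and 1.59 times in set 3 (1.41 to 1.81). The choroid plexus spots also held neuron markers, summing to 1300.7 and 1940.2 CPM in sets 1 and 3 against 3996.7 and 4079.4 in dorsal striatum. No background level of Arc is therefore read from them.

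Homer1, the scaffold of metabotropic glutamate receptors, was the striatal gene of the group. Dorsal striatum held 279.3, 178.5, 178.2 and 153.7 CPM in sets 1 to 4, above every other area in each set. Layer 2/3 spots followed with 251.7, 141.2, 143.5 and 134.2 CPM. Striatum was 2.26, 1.85, 1.91 and 2.12 times the other spots, and layer 6 was 0.664, 0.64, 0.624 and 0.689 times striatum. These ratios of areas varied little between sets, while the level in set 1 stood above the other sets. Dorsal striatum was also 2.05, 1.9, 1.82 and 1.72 times ventral striatum. Choroid plexus held 81.2 CPM in set 1 and 60.2 in set 3, and 6 of 14 other areas in set 1 and 5 of 13 in set 3 were at or below it, the hypothalamus, septum and white matter among them.

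Nptx2, the secreted pentraxin, was high in superficial and deep cortex. Layer 6 spots held 51.5, 102.2, 34.0 and 106.7 CPM and layer 2/3 spots 50.4, 85.3, 32.1 and 96.4. Of the layers between, layer 4 was the lower, at 16.3, 42.4, 12.5 and 45.6 CPM, and layer 5 held 26.1, 73.7, 16.5 and 62.7. Layer 6 was 3.15, 2.41, 2.71 and 2.34 times layer 4, and layer 2/3 was 3.08, 2.01, 2.56 and 2.11 times layer 4. Claustrum and endopiriform spots held 44.5, 59.4, 26.7 and 82.1 CPM, and thalamus 24.8 in set 1 and 60.4 in set 4, all above layer 4 of the same set. Dorsal striatum held 10.1, 32.3, 10.8 and 33.8 CPM. Here sets 2 and 4 lay close together above sets 1 and 3, and set 4 was 3.36 times set 1 (2.86 to 3.95). Choroid plexus held 3.81 CPM in set 1 and 3.01 in set 3, and dorsal striatum was 2.64 and 3.59 times that.

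Bdnf, the neurotrophin, was nearly absent from the dorsal striatum. Dorsal striatum held 1.56, 1.99, 1.14 and 2.13 CPM, from 44, 45, 36 and 21 counts. Choroid plexus held 1.52 CPM in set 1 and 0.886 in set 3, and the ratios of striatum to choroid plexus, 1.02 (0.508 to 2.28) and 1.29 (0.504 to 4.21), lay within counting error of 1. Ventral striatum held more in set 1, with 10.5, 4.44, 3.16 and 4.3 CPM in sets 1 to 4, and dorsal striatum was 0.148 (0.0889 to 0.253), 0.448 (0.223 to 0.997), 0.361 (0.141 to 1.18) and 0.496 (0.194 to 1.5) times that. Layer 2/3 spots held 99.9, 108.2, 48.8 and 105.9 CPM, and claustrum and endopiriform spots 95.8, 96.0, 45.2 and 104.2. Both were lowest in set 3, and the other 3 sets lay close together. Layer 6 held 39.1, 66.2, 25.6 and 56.1 CPM, which was 25.1, 33.3, 22.4 and 26.3 times dorsal striatum. The hypothalamus and preoptic area held 30.2, 39.2, 32.2 and 49.9 CPM, 19.8 times choroid plexus in set 1 and 36.3 times in set 3. By that ratio, Bdnf was the gene of the 7 whose hypothalamic level stood farthest above choroid plexus.

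Set against the other spots of the same set, the areas separated the genes as follows, among 10372 genes whose average over areas and sets reached 10 CPM. Npas4 again fell short, so 6 of the 7 were tested. In dorsal striatum Bdnf and Ier2 were at least 2-fold lower in all 4 sets, and Nptx2 in set 1 too. That made 3 of 6 in set 1 and 2 of 6 in sets 2, 3 and 4, against 9.67%, 9.20%, 9.24% and 9.34% of all genes. Homer1 was at least 2-fold higher on the log2(CPM + 1) scale in sets 1 and 4, 1 of 6 in each, against 3.98% and 3.79%, and 0 of 6 were in sets 2 and 3, against 3.52% in both. In layer 2/3 Bdnf was 2-fold higher in every set and Nptx2 in sets 1, 3 and 4, so that 2, 1, 2 and 2 of 6 were called against 2.05%, 1.32%, 1.37% and 1.78%.

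In layer 6 Nptx2 was 2-fold higher in every set and Arc in sets 1 and 4, so that 2, 1, 1 and 2 of 6 were called against 1.55%, 1.19%, 1.27% and 1.25% of all genes. In the hypothalamus and preoptic area Arc, Homer1 and Nptx2 were 2-fold lower in every set, with Dusp1 and Ier2 also lower in set 4. That made 3, 3, 3 and 5 of 6 against 5.63%, 6.77%, 6.01% and 5.67%. Bdnf stood there at 1.09, 0.804, 1.57 and 1.19 times the other spots. Set 1 was within counting error of 1, set 2 was lower, set 3 was higher, and the value of set 4 became 0.893 with areas from clusters.

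**Figure D3:**
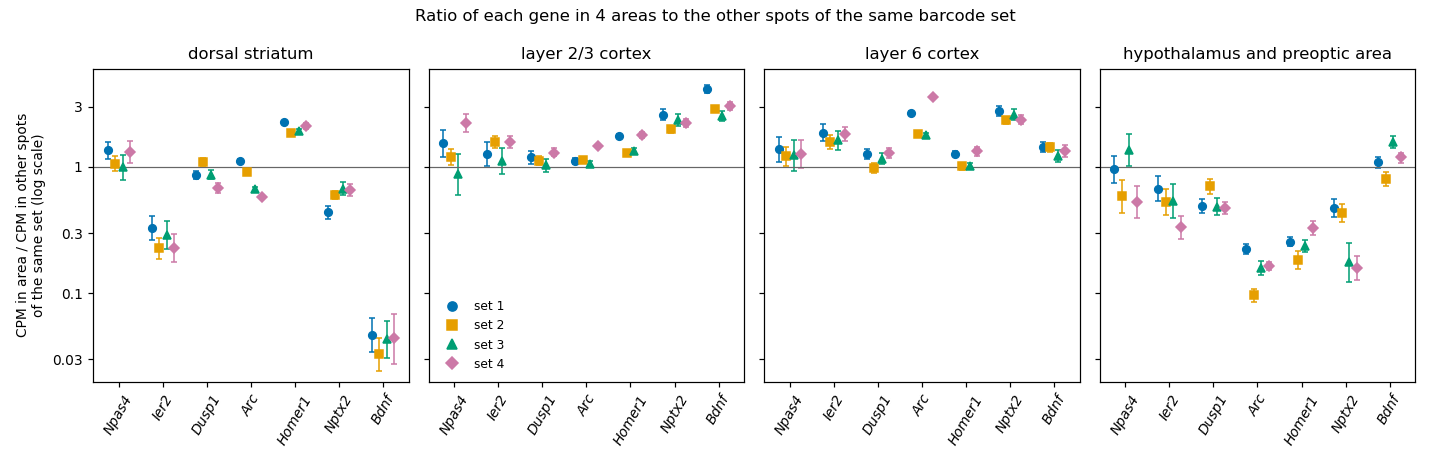
Ratio of the CPM in an area to the CPM in the other spots of the same set (vertical axis, log scale) for the 7 genes (horizontal axis) in 4 areas, 1 panel each, with 95% exact intervals for counting error and a line at a ratio of 1. Bdnf in dorsal striatum lay between 0.0331 and 0.0471, Homer1 in dorsal striatum between 1.85 and 2.26, and Arc in layer 6 between 1.78 and 3.59.

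The pairs of sets were also compared within areas. In dorsal striatum 4 of the 7 genes averaged at least 10 CPM over the sets (Arc, Homer1, Nptx2, Dusp1), among 9649 genes tested. Arc and Nptx2 were 2-fold apart between sets 1 and 2, 2 of 4 against 5.21% of all genes, and between sets 1 and 4, 2 of 4 against 6.56%. Between sets 2 and 3 Dusp1 joined them, 3 of 4 against 4.17%, and between sets 3 and 4 there were again 2 of 4, Arc and Nptx2, against 5.17%. Sets 1 and 3 had 0 of 4 against 0.332%, and sets 2 and 4 had 0 of 4 against 0.725%. In striatal spots meningeal and choroid markers summed to 479.1, 12.7, 277.0 and 19.5 CPM in sets 1 to 4, and endothelial and mural markers to 206.9, 261.0, 182.4 and 276.8. The neuron markers summed to 3996.7, 4187.7, 4079.4 and 4371.7 CPM. The part of these lists in the striatal differences was not tested.

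In layer 6 spots 6 of the 7 genes were tested among 9730. Arc alone was 2-fold apart between sets 1 and 2, 1 of 6 against 6.08%, and between sets 2 and 4, 1 of 6 against 0.452%. Arc, Nptx2 and Ier2 were 2-fold apart between sets 1 and 4, 3 of 6 against 8.10%. Between sets 2 and 3 there were 4 of 6 (Arc, Nptx2, Bdnf, Ier2) against 4.37%, and between sets 3 and 4 there were 5 of 6, all but Homer1, against 5.96%. Sets 1 and 3 had 0 of 6 against 0.267%. In these spots endothelial and mural markers summed to 132.2, 205.8, 124.2 and 212.4 CPM in sets 1 to 4, and meningeal and choroid markers to 54.5, 9.91, 111.4 and 29. The neuron markers summed to 8094.7, 8346.0, 7967.6 and 9019.3 CPM and the oligodendrocyte markers to 5906.6, 4870.6, 4646.5 and 4281.4. Their part in the result was not tested.

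Single spots were compared at equal depth by thinning each to 10000 counts. In dorsal striatum 68.3%, 93.7%, 54.5% and 84.4% of spots then held a count of Arc in sets 1 to 4, against 98.2%, 99.8%, 94.1% and 97.2% without thinning. At equal depth the shares stood in the order of the striatal CPM, set 2 first, then sets 4, 1 and 3, which the shares without thinning did not. With depth fixed, a share follows largely from the CPM, so this match is mostly built in and nothing is read from it. In choroid plexus the thinned share for Arc was 36.1% (25.1 to 48.3) in set 1 and 39.3% (29.1 to 50.3) in set 3, at median depths of 79310 and 57169 counts per spot against 48324 and 40643 in dorsal striatum. In layer 6 the thinned shares for Arc were 88.0%, 97.8%, 76.3% and 97.3%. Thinning left out 1 striatal spot, in set 2, and 3 layer 6 spots, in set 4.

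For Npas4 the thinned shares in dorsal striatum were 6.98%, 11.4%, 3.81% and 12.3%, and without thinning 28.4%, 34.9%, 12% and 24.9%. In choroid plexus 5.56% of thinned spots held Npas4 in set 1, with an interval of 1.53 to 13.6, and 4.49% in set 3, with 1.24 to 11.1, and both intervals contain the striatal share of the same set. By CPM, striatum was 1.81 times choroid plexus in set 1 (1.2 to 2.83) and 1.99 times in set 3 (1.01 to 4.48). In set 3 the share and the CPM point opposite ways, so no order is read from the share. For Nptx2 the striatal shares were 9.66%, 28.7%, 10.8% and 29.0% at equal depth (36.3%, 64.7%, 35.9% and 56.2% without thinning), against 2.78% and 7.87% in choroid plexus of sets 1 and 3. For Homer1 they were 94.5%, 82.5%, 85.2% and 78.8% (100%, 99.2%, 99.3% and 95.5% without thinning), against 52.8% and 56.2%.

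Dusp1 was counted in 23.6%, 38.6%, 19.6% and 37.0% of thinned striatal spots (73.7%, 78.5%, 60.1% and 65.7% without thinning), and in 26.4% and 16.9% of those of choroid plexus in sets 1 and 3. In set 1 the share of Dusp1 was lower in striatum than in choroid plexus while its CPM was higher there, so no order is read from it. Bdnf was counted in 2.15%, 2.47%, 1.05% and 2.02% of thinned striatal spots (6.44%, 6.48%, 4.07% and 5.04% without thinning), against 2.78% and 2.25% in choroid plexus. In sets 1 and 3 its striatal CPM lay within counting error of that of choroid plexus. Ier2 was counted in 3.58%, 5.56%, 1.58% and 7.05% (14.1%, 16.8%, 8.54% and 15.1% without thinning), against 1.39% and 7.87%. The striatal CPM of Ier2 lay below that of choroid plexus in both sets, so no order is read from these shares.

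**Figure D4:**
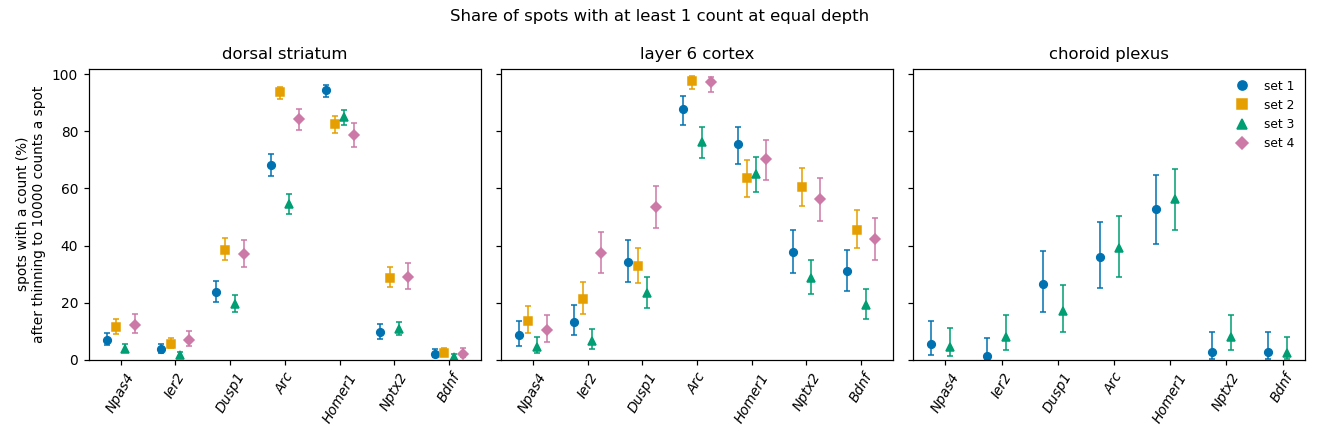
Share of spots with at least 1 count (vertical axis, %, starting at 0) after thinning each spot to 10000 counts, for the 7 genes (horizontal axis) in 3 areas, with 95% Clopper-Pearson intervals. Choroid plexus is shown for sets 1 and 3, which had at least 30 spots there. Arc was counted in 54.5% to 93.7% of striatal spots and in 36.1% and 39.3% of choroid plexus spots.

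Within 1 area of 1 set, the genes were hardly related from spot to spot. Over the 40 combinations of area and set with at least 100 spots, the median Pearson r of the 21 pairs of genes, on thinned counts, ran from -0.02 to 0.09. The pair of Arc and Homer1 had the highest of these medians, 0.09, and was above 0 in 31 of 40. Single values ran from -0.27 to 0.33. Spots of a section share a library, and in counts as sparse as these a weak r is no finding.

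Over the 56 combinations of area and set, which share libraries and depth, pairs of the 7 genes were more alike. On the log2(CPM + 1) scale Dusp1 and Ier2 had an r of 0.81, Nptx2 and Dusp1 0.80, Arc and Nptx2 0.76, and Homer1 and Ier2 -0.01. After centring each gene within each set, which leaves the pattern over areas, Arc and Homer1 had the highest r of all pairs, 0.81, up from 0.49 without centring. Nptx2 and Dusp1 were then at 0.69 and Dusp1 and Ier2 at 0.64. Homer1 and Bdnf had the lowest r after centring, 0.16.

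Among 10373 genes compared over the same 56 points, those with the pattern most like Arc were Ier5, Nr4a1 and Slc8a2 (r of 0.91, 0.90 and 0.88). Ier5 is an immediate-early gene and Nr4a1 an activity-induced nuclear receptor. For Ier2 they were Trib1, Ciz1 and Clec11a (0.84, 0.84 and 0.83), and for Dusp1 they were Nr1d1, a repressor in the circadian clock, Kdm7a and Ier2 (0.85, 0.81 and 0.81). Npas4 was most like Bop1, Lrrc73 and Fosl2 (0.80, 0.79 and 0.78), the last an AP-1 subunit. Nptx2 was most like Igsf9b, Dusp6, a phosphatase of ERK, and Uck2 (0.87, 0.86 and 0.86).

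Homer1 was most like Camkk2, a calcium-dependent kinase, Synpo, which encodes a protein of dendritic spines, and Sec14l1 (0.93, 0.93 and 0.90). Bdnf was most like Sidt1, Cbln2, which encodes a secreted synapse organiser, and Gabbr2, a subunit of the GABA-B receptor (0.92, 0.90 and 0.90). With each set centred, the closest genes were Pik3r2 for Arc (0.92), Cnksr2 for Homer1 (0.96), Sv2b for Nptx2 (0.91), Kcnj6 for Bdnf (0.92), Hes1 for Ier2 (0.84), Nr1d1 for Dusp1 (0.77) and Nol4 for Npas4 (0.70).

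The 7 genes were set beside lists of other activity-induced genes, grouped by role and also drawn up with earlier results known. Each list is described by how many of its genes had a highest set at least 2-fold above the lowest, on the log2(CPM + 1) scale. Over all genes tested in the whole section this held for 11.1%, with a median range of 0.49. It held for 5 of the 6 tested here, with a median range of 1.45. It held for 4 of 6 in the Fos and Jun group (1.75), 4 of 7 in the Egr and Nr4a group (1.19), 5 of 12 other rapidly induced regulators (0.82), 4 of 7 phosphatases and kinases (1.15) and 4 of 11 secreted or synaptic effectors (0.84).

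Fos, the AP-1 subunit used most often as a mark of recent activity, stood at 15.9, 65.5, 9.24 and 88.2 CPM in sets 1 to 4, in the same order of sets as Arc. Dusp14, a phosphatase of the family of Dusp1, stood at 1.5, 26.3, 1.82 and 22.3 CPM, the largest range among the named genes of these lists in the whole section. In all 15 genes of these lists that the naming rule picked in the whole section, sets 2 and 4 stood above sets 1 and 3. In dorsal striatum this held for 14 of the 15 picked there. The rule picked up to 3 genes a list with the largest range over the sets. Neither their size of range nor the number in this order is therefore a finding, and the share of all genes in this order was not counted.

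In dorsal striatum the share over all genes was 10.2%, with a median range of 0.49. It held for 3 of the 4 tested here (1.34), 4 of 6 in the Fos and Jun group (1.56), 4 of 6 in the Egr and Nr4a group (1.90), 1 of 9 other regulators (0.75), 2 of 6 phosphatases and kinases (0.88) and 6 of 10 secreted or synaptic effectors (1.05). Fosl2, an AP-1 subunit, was 23.3, 71.2, 14.3 and 55.3 CPM there, and Nr4a3, an orphan nuclear receptor, 14.9, 44.0, 8.6 and 35.3, both in the order of sets seen for Arc in striatum. Rheb, a small GTPase upstream of mTOR, went another way, with 193.2, 97.7, 138.2 and 86.5 CPM, highest in set 1 and lowest in set 4 as Homer1 was.

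**Figure D5:**
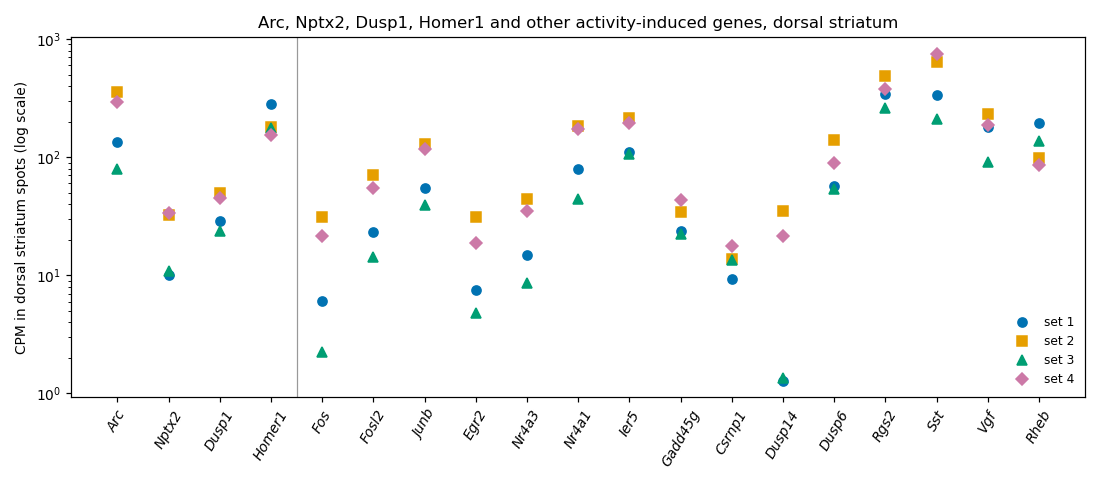
Level in dorsal striatum spots (vertical axis, CPM, log scale) of the 4 genes tested there, Arc, Nptx2, Dusp1 and Homer1, left of the line, and of the named genes of 5 other lists of activity-induced genes, right of it, with 1 symbol for each barcode set. Dusp14 had the widest range, from 1.28 to 35.2 CPM, and Homer1 and Rheb were highest in set 1.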

How the data were processed

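The authors deposited 1 table of raw counts for 19465 genes in 12602 spots, and the submitters' processing notes name Space Ranger and Seurat without versions. Which probe set and genome build they used, and whether spots were filtered, is not given in the sources used here. The 7 genes, the marker lists and the lists of activity-induced genes were chosen with earlier results of these data known.

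For each set and area, counts of a gene were divided by all counts there and given per 1000000 (CPM). Spots under 500 counts were left out (1 spot). Of 114 area markers listed, 112 were measured. Spots between areas enter the whole section and the other spots of a ratio. Intervals are 95% exact Poisson (levels), conditional binomial (ratios) and Clopper-Pearson (shares), for counting error only. The planned test of genotype with edgeR was not run, since no barcode set matches a label. Genes named besides the 7 were, for each, the 3 with the highest r over areas and sets and, for each list, up to 3 with the largest range over sets. Steps were tested on simulated data. Python 3.11.15, numpy 2.4.6, scipy 1.17.1 and, for TMM and RLE factors, edgeR 4.0.16 in R 4.3.3 were used.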

Additional observations from a re-analysis of the deposited data

How the results depend on the processing

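No paired analysis was possible because no barcode set could be matched to a mouse. For the same reason neither the planned edgeR test of genotype nor any fit that leaves out a replicate was run. Of 162 counts of genes 2-fold apart under an alternative, 158 were within 1.5 times the count reported. The other 4 were: in layer 6, sets 1 and 2, 2 genes with z scores taken within each set and 3 with RLE scaling, against 1 reported, and with no filter on genes, in dorsal striatum, 5 between sets 2 and 3 and 4 between sets 3 and 4, against 3 and 2. Of the ratios of an area to other spots, 726 values stayed within their counting interval, 139 left it in the same direction, and 3 changed direction. With areas from Leiden clusters, Arc in layer 2/3 of set 1 was 0.99 and Bdnf in the hypothalamus and preoptic area of set 4 was 0.893. With RLE scaling, Arc in dorsal striatum of set 2 was 1.02. The cause was not tested. The clusters gave no value for areas with under 30 clustered spots in a set. Layer 5, claustrum and endopiriform, ventral striatum and lateral septum had 0 clustered spots in every set. Layer 6 had 29, 0, 1 and 256 in sets 1 to 4, and layer 2/3 had 119, 197, 138 and 8. The layer 6 ratios were therefore checked against clusters in set 4 only. Whole-section levels left their counting interval in 36 of 140 values, 16 of them with the same mix of areas. Shares of spots moved with the depth they were thinned to in 156 of 168 values.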
